A study of Homo sapiens with 15 samples.

Results

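The 4 HOX gene clusters were examined in HCT116 cells through 38 listed HOX genes, with 10 genes in HOXA (chromosome 7), 10 in HOXB (chromosome 17), 9 in HOXC (chromosome 12) and 9 in HOXD (chromosome 2). Each gene was read as the CpGs within 1 kb of its annotated start (GENCODE on hg38). All 38 starts could be tested, among 19261 starts tested of 20033 protein-coding genes. HCT116 is a human colorectal carcinoma cell line, and every population carried a doxycycline-inducible short hairpin RNA, against UHRF1 in the clones Cl.3, Cl.6 and Cl.9 and against DNMT1 in the bulk cultures R1 and R2. Libraries were made from each at Baseline (no doxycycline, day 14), at Knockdown (10 ng/mL doxycycline for 14 days) and at Recovery (day 28, after 14 further days without doxycycline), which gives 15 libraries. DNMT1 copies methylation onto newly made DNA strands, and UHRF1 is a ubiquitin ligase that helps bring it there. All shUHRF1 populations were clones and both shDNMT1 populations were bulk cultures, in separate count tables, so these cannot be told apart in any comparison of the shRNAs. Cl.9 also came in a count table of its own, apart from Cl.3 and Cl.6, so the clone and its table cannot be told apart where Cl.9 differs. Recovery had no Baseline of its own day, and the libraries read here hold neither protein nor RNA. The paper followed UHRF1 and DNMT1 by western blot and describes Cl.9 as the clone that lost most UHRF1. The depth of knockdown may differ between populations, and its part in the values here was not tested.

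HOX genes encode homeodomain transcription factors that give cells their position along the head-to-tail axis of the embryo. Genes of like number in different clusters are paralogs, and genes with low numbers act towards the head while those with high numbers act towards the tail, limbs and genitals. In many tissues silent HOX genes carry Polycomb marks on CpG islands that lack DNA methylation, and in colorectal cancer cells a number of these islands are methylated.

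Whole-genome bisulfite sequencing gave between 315732617 and 590592161 reads at CpGs per library, with a median of 11 to 20 reads per CpG. Over the whole genome the methylation level (mC, the percent of reads that kept C) was 71.7% to 76.5% at Baseline, 42.7% to 62.5% (clones) and 39.4% to 40.3% (bulk) at Knockdown, and 53.1% to 68.0% and 72.8% to 72.9% at Recovery. Cytosines of the mitochondrial genome, used as a bound on failed conversion, read as methylated in 0.257% to 0.500% of calls in 14 libraries and in 2.50% in Cl.6 Baseline.

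To show what was read, the deepest covered CpG of each density class is given for each cluster, among CpGs near HOX starts with mC of at least 85% in all 5 Baseline libraries. A low-density CpG has its nearest neighbouring CpG at least 20 bp away. The reference hg38 sequence is printed 5′ to 3′ on the plus strand, with the CpG in capitals.
HOXA10 low-density, chr7:27179437-27179466: gagtgaaatgctggCGcaaggagctaaaat
HOXA10 high-density, chr7:27179417-27179446: aaaatcgaaagattCGccttgagtgaaatg
HOXB2 low-density, chr17:48545967-48545996: aaagttcagatcagCGttatgtgtgtgcat
HOXB1 high-density, chr17:48531194-48531223: gagcgacatggaagCGtcaaaaacatcttt
HOXC5 low-density, chr12:54032315-54032344: tccctcctcctgggCGtcctgtctacctct
HOXC6 high-density, chr12:53990490-53990519: ggacggtcttggtgCGcgcgagaggtggat
HOXD11 low-density, chr2:176104201-176104230: taagaagtccattcCGaaggctctgtaggg
HOXD11 high-density, chr2:176103404-176103433: gaagccgcactgagCGctcggaaggctggg

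The HOXC5 low-density site lies in an intron of HOXC4, 178 bp from the next CpG. With the reads of all clones added together its mC was 98.8% at Baseline, 80% at Knockdown and 90.8% at Recovery, and with both bulk populations added it was 98.5%, 50% and 100%. The HOXC5 site did not fall in Cl.3 (100% at Baseline and at Knockdown) and fell to 78.9% in Cl.6 and 69.7% in Cl.9. The HOXC6 high-density site, 120 bp upstream of the HOXC6 start and 2 bp from the next CpG, read 94.5%, 91.5% and 100% in the clones against 98.1%, 62.7% and 98.0% in the bulk populations. Both sites lost more in the bulk populations than in the clones. The paired HOXA10 sites, 20 bp apart in an intron of HOXA10, did not follow their density classes. In the clones at Knockdown mC was 53.6% at the low-density site and 37.6% at the high-density site. In HOXB, the HOXB2 low-density site, in an exon of HOXB-AS1, went from 95.04% to 80% in the clones and from 97.6% to 52.7% in the bulk populations, and the HOXB1 high-density site from 96.9% to 73.8% and from 100% to 60%. Most of the fall in the clones came from Cl.9 at both HOXB sites. There the HOXB2 site went from 98.0% to 61.0%, against 94.6% to 91.1% in Cl.3 and 91.4% to 93.5% in Cl.6, and the HOXB1 site went from 96.7% to 53.5%, against 97.4% to 88.9% and 96.8% to 87.9%. At Knockdown the HOXD11 low-density site was at 75.8% in the clones and 45.6% in the bulk populations. The HOXD11 high-density site was higher, at 87.3% and 73.3%, although in Cl.3 the HOXD11 sites were close (94.4% and 93.3%). Single sites rest on 7 to 73 reads per library, and the windows described next add up 49 to 218 CpGs and 229 to 5135 reads per library.

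At Baseline the HOX starts covered the whole range of methylation. Of the 38, 17 had a mean mC of at least 80% over the 5 populations, 12 lay between 20% and 80%, and 9 lay under 20% (limits chosen after the values were seen). Among all 19261 starts tested the shares were 27.8%, 28.3% and 43.9%, and the median was 25.7% against 70.6% for the HOX starts. A high Baseline was not particular to HOX starts: 89 other homeobox genes had a median of 81.4%, with 47 at 80% or more. HOXD held the most methylated starts (6 of 9 at 80% or more), HOXB had 4 of 10, HOXC 4 of 9 and HOXA 3 of 10. By position along the axis, 3 of 7 starts of paralog groups 1 to 3, 7 of 15 of groups 4 to 8 and 7 of 16 of groups 9 to 13 lay at 80% or more.

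The state of a HOX gene depended on which start was read. At 12 of the 38 the canonical transcript begins over 1 kb from the annotated gene start. HOXB7 was at 97.4% at its annotated gene start and at 0.956% at the start of its canonical transcript, 22555 bp away. HOXA9, a regulator of blood progenitors, was at 61.1% and 1.06%, and HOXA7 at 94.0% and 14.8%. In the opposite direction, HOXB3 was at 6.35% and 94.3%, HOXC4 at 10.5% and 89.6%, HOXD3 at 36.3% and 95.1%, and HOXA6 at 6.02% and 66.9%. HOXA10 was at 32.6% and 15.3%, HOXC9 at 19.5% and 6.99%, HOXD11 at 93.4% and 44.6%, while HOXC6 and HOXD10 were highly methylated at both. For these 12 genes a value given here describes the annotated gene start alone. The windows of HOXB3 and HOXB6 also share 96.0% of their length, so this pair is close to 1 measurement.

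**Figure D1:**
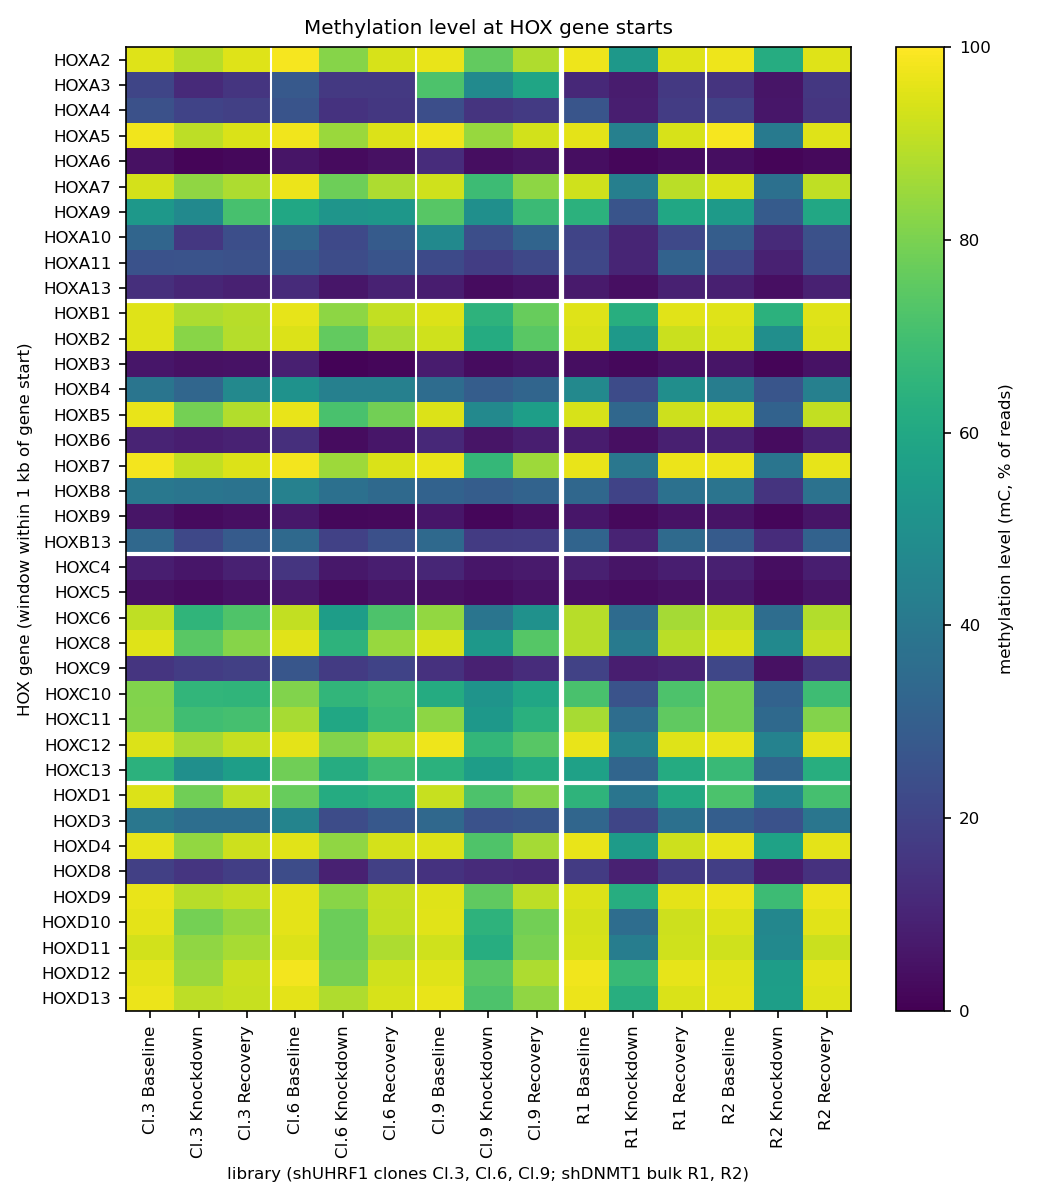
Methylation level (mC, percent of reads) within 1 kb of the start of each of the 38 HOX genes (rows, by cluster) in the 15 libraries (columns, by population and stage). The color scale runs from dark (0%) to yellow (100%), starts at 80% or more at Baseline darken at Knockdown, most in R1 and R2, and 9 starts lie under 20% at Baseline on average.

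Populations agreed within a few points at most highly methylated starts and differed more at a number of others. HOXA3, needed for the thymus and parathyroid glands, was at 72.2% in Cl.9 Baseline (Wilson 95% interval 69.6% to 74.6%, counting error only) against 11.7% to 27.9% in the other 4. The Cl.9 domain list places the HOXA3 start in a highly methylated domain at Baseline, and the other 4 Baseline lists place it in an unmethylated region. HOXD1 ranged from 64.9% in R1 to 94.6% in Cl.3, HOXC13, a regulator of hair keratins, from 57.3% to 78.2%, and HOXB4, known for expanding blood stem cells, from 35.2% to 50.9%. Wide ranges were also seen at HOXA10 (20.5% to 47.5%), HOXA9 (53.2% to 73.9%) and HOXC10 (61.5% to 81.2%). HOXA10 was highest in Cl.9, and its start lay in a highly methylated domain at Baseline in Cl.9 alone. With 1 Baseline library per population these differences were not tested.

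The first comparison asked how much methylation HOX starts lost under the shRNA against UHRF1. At shUHRF1 Knockdown 34 of 38 starts fell (edgeR quasi-likelihood test, adjusted p under 0.05), where 91.7% of all starts fell, and 0 rose, where 0.0208% of all rose. The median change was -13.4 points over the HOX starts and -9.65 points over all starts, and single HOX starts ranged from -34.9 to -2.05 points. The 4 that did not pass were HOXA11 (-2.95 ± 2.89 points (SD, n = 3)), HOXB4 (-6.32 ± 1.09 points (SD, n = 3)), HOXB8 (-3.25 ± 3.12 points (SD, n = 3)) and HOXC9 (-4.20 ± 6.06 points (SD, n = 3)). Cl.6 moved the most at HOXB8 (43.9% to 37.0%) and at HOXC9 (26.9% to 17.2%), and HOXC9 went from 15.3% to 17.6% in Cl.3. Cl.6 Baseline is the library with 2.50% of mitochondrial calls read as methylated, and the part of conversion in these values was not tested.

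Under the shRNA against DNMT1 the median loss at HOX starts was larger. At shDNMT1 Knockdown 37 of 38 fell, against 93.6% of all starts, and 0 rose, where 0.0104% of all rose. The median change was -30.2 points over the HOX starts and -13.8 points over all starts, with single starts between -61.5 and -1.92 points. HOXD3 was the one that did not pass (-8.34 ± 5.34 points (SD, n = 2), edgeR adjusted p = 0.0505), going from 33.0% to 20.9% in R1 and from 29.7% to 25.2% in R2. Since most starts of the genome fell under either knockdown, these counts say little of HOX genes, and the sizes are described next.

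In HOXA the start that was highest at Baseline was HOXA5, a gene needed for lung development (chr7:27143681 on the minus strand, 147 CpGs). HOXA5 mC in clone order (Cl.3, Cl.6, Cl.9) was 98.0%, 98.0% and 97.6% before doxycycline, 90.04%, 85.05% and 84.6% with it and 94.4%, 94.6% and 93.1% at Recovery. HOXA5 mC in R1 and R2 was 95.9% and 98.5%, then 43.6% and 41.2%, then 94.0% and 94.99% over the same stages. Every clone at Knockdown was far above both bulk populations, which regained most of their loss by Recovery. The change was -11.3 ± 2.89 points (SD, n = 3) for shUHRF1 (edgeR adjusted p = 1.64e-09) and -54.8 ± 3.55 points (SD, n = 2) for shDNMT1 (adjusted p = 6.12e-14), and the changes differed by 43.5 points (adjusted p = 0.0012), the largest such difference among the 38. HOXA7 had the largest shUHRF1 fall of the cluster (chr7:27157936 on the minus strand). At HOXA7 the clones, in the same order, held 93.4%, 96.9% and 92.7% at Baseline, 83.2%, 77.8% and 68.6% at Knockdown and 87.8%, 87.8% and 83.0% at Recovery, while R1 and R2 held 92.7% and 94.4%, then 43.2% and 37.1%, then 89.7% and 90.4%. Its changes were -17.8 ± 7.03 points (SD, n = 3) and -53.4 ± 5.53 points (SD, n = 2), which differed by 35.6 points (edgeR adjusted p = 0.00401). At the canonical HOXA7 start they were -3.66 points, which did not pass, and -6.35 points.

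At HOXA3 the clones, in the same order, held 21.1%, 27.9% and 72.2% at Baseline, 12.0%, 16.5% and 47.9% at Knockdown and 15.4%, 16.6% and 58.8% at Recovery, while R1 and R2 held 11.7% and 15.0%, then 7.70% and 5.77%, then 16.6% and 16.4%. Cl.9 stayed above every other population at all stages. The HOXA3 change (chr7:27152583 on the minus strand) was -14.9 ± 8.16 points (SD, n = 3) under shUHRF1 against -6.60 ± 3.70 points (SD, n = 2) under shDNMT1, changes whose difference did not pass the test (edgeR adjusted p = 0.918). HOXA6 was the least methylated start of HOXA (chr7:27150603 on the minus strand). HOXA6 mC in clone order (Cl.3, Cl.6, Cl.9) was 4.54%, 5.76% and 12.6% before doxycycline, 1.397%, 3.04% and 3.52% with it and 2.246%, 4.59% and 5.25% at Recovery. HOXA6 mC in R1 and R2 was 3.67% and 3.58%, then 1.86% and 1.55%, then 3.26% and 2.47% over the same stages. The changes were -4.97 ± 3.53 points (SD, n = 3) and -1.92 ± 0.155 points (SD, n = 2), and at the canonical HOXA6 start -18.0 and -32.5 points. In Cl.6 Baseline, where 2.50% of mitochondrial calls read as methylated, the part of conversion in the 5.76% was not tested. Without Cl.9 the shUHRF1 change of HOXA6 was -2.93 points, and without R2 neither the shDNMT1 change of HOXA6 (-1.81 points) nor that of HOXA3 (-3.98 points) passed.

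In HOXB the gene with the largest loss under both shRNAs was HOXB5, which acts in the enteric nervous system (chr17:48593779 on the minus strand, 106 CpGs). At HOXB5 the clones, in the same order, held 96.8%, 96.6% and 94.7% at Baseline, 78.9%, 71.4% and 47.1% at Knockdown and 88.4%, 78.7% and 56.1% at Recovery, while R1 and R2 held 93.9% and 93.9%, then 33.3% and 31.5%, then 92.3% and 90.7%. Cl.9 lost the most among the clones and was still above both bulk populations. The change was -30.2 ± 15.5 points (SD, n = 3) (edgeR adjusted p = 1.7e-11) and -61.5 ± 1.24 points (SD, n = 2) (adjusted p = 1.29e-13). HOXB7 was the most methylated start of the cluster (chr17:48633572 on the minus strand). HOXB7 mC in clone order (Cl.3, Cl.6, Cl.9) was 98.2%, 98.2% and 96.8% before doxycycline, 90.9%, 85.4% and 66.8% with it and 94.6%, 94.4% and 85.2% at Recovery. HOXB7 mC in R1 and R2 was 96.6% and 97.2%, then 39.6% and 38.9%, then 97.0% and 96.4% over the same stages. Every clone at Knockdown was above both bulk populations, and the changes of -16.7 ± 11.9 points (SD, n = 3) and -57.7 ± 0.938 points (SD, n = 2) differed by 40.9 points (edgeR adjusted p = 0.0029). At the canonical HOXB7 start, at 0.956% before treatment, they were -1.11 and -0.0142 points, a difference in the opposite direction. Without Cl.9 the shUHRF1 change of HOXB7 was -10.1 points.

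At HOXB4 the clones, in the same order, held 39.0%, 50.9% and 35.2% at Baseline, 33.1%, 43.4% and 29.6% at Knockdown and 47.0%, 43.5% and 32.5% at Recovery, while R1 and R2 held 47.1% and 42.4%, then 22.9% and 26.3%, then 49.5% and 43.6%. The bulk populations lay below all clones at Knockdown. HOXB4 (chr17:48578350 on the minus strand) fell for shDNMT1 (-20.2 ± 5.69 points (SD, n = 2), edgeR adjusted p = 8.9e-05), whereas the shUHRF1 change did not pass (adjusted p = 0.109). HOXB9, which helps pattern the ribs, was the least methylated start of HOXB (chr17:48626358 on the minus strand). HOXB9 mC in clone order (Cl.3, Cl.6, Cl.9) was 5.78%, 6.46% and 6.15% before doxycycline, 3.02%, 1.99% and 1.88% with it and 4.08%, 2.39% and 3.58% at Recovery. HOXB9 mC in R1 and R2 was 6.10% and 5.31%, then 2.69% and 1.74%, then 5.01% and 5.48% over the same stages. It changed by only a few points under either shRNA, by -3.83 ± 0.933 points (SD, n = 3) and -3.49 ± 0.115 points (SD, n = 2). The shDNMT1 change of HOXB9 no longer passed without R2 (-3.41 points) and was 0.167 points in windows of 500 bp.

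HOXC6 had the largest shUHRF1 fall of all 38 starts (chr12:53990624 on the plus strand, 50 CpGs). HOXC6 mC in clone order (Cl.3, Cl.6, Cl.9) was 90.5%, 90.7% and 83.6% before doxycycline, 65.6%, 55.7% and 38.8% with it and 72.3%, 71.9% and 50.8% at Recovery. HOXC6 mC in R1 and R2 was 89.1% and 90.9%, then 34.8% and 35.8%, then 86.4% and 88.5% over the same stages. Every library at Knockdown was below every library at Baseline, and Cl.9 lay nearest to the bulk populations. The change was -34.9 ± 9.98 points (SD, n = 3) for shUHRF1 (edgeR adjusted p = 6.53e-11) and -54.7 ± 0.561 points (SD, n = 2) for shDNMT1 (adjusted p = 6.16e-13). At the canonical HOXC6 start they were -24.1 and -59.9 points, and there HOXC6 fell less under shUHRF1 than HOXC8 (-30.8 points). HOXC12 was the most methylated start of HOXC (chr12:53954903 on the plus strand). At HOXC12 the clones, in the same order, held 94.8%, 95.7% and 97.5% at Baseline, 86.5%, 81.5% and 66.2% at Knockdown and 91.2%, 89.0% and 74.1% at Recovery, while R1 and R2 held 96.5% and 96.3%, then 44.8% and 44.5%, then 95.1% and 95.9%. Its changes of -17.9 ± 11.9 points (SD, n = 3) and -51.8 ± 0.0859 points (SD, n = 2) differed by 33.8 points (edgeR adjusted p = 0.0112), and without Cl.9 the shUHRF1 change of HOXC12 was -11.3 points.

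At HOXC13 the clones, in the same order, held 64.4%, 78.2% and 64.0% at Baseline, 49.8%, 62.0% and 55.6% at Knockdown and 55.9%, 69.0% and 61.4% at Recovery, while R1 and R2 held 57.3% and 67.7%, then 32.5% and 32.8%, then 61.6% and 62.8%. Both shRNAs lowered the HOXC13 start (chr12:53938831 on the plus strand), with changes of -13.03 ± 4.09 points (SD, n = 3) and -29.9 ± 7.18 points (SD, n = 2), and the difference did not pass the test (edgeR adjusted p = 0.0634). HOXC5 was the least methylated of all 38 starts (chr12:54033050 on the plus strand). HOXC5 mC in clone order (Cl.3, Cl.6, Cl.9) was 4.61%, 6.66% and 4.58% before doxycycline, 3.44%, 2.95% and 3.33% with it and 4.90%, 5.19% and 4.85% at Recovery. HOXC5 mC in R1 and R2 was 4.13% and 6.53%, then 3.39% and 2.40%, then 4.57% and 5.15% over the same stages. The changes of -2.05 ± 1.44 points (SD, n = 3) and -2.43 ± 2.40 points (SD, n = 2) were the smallest of the cluster. Neither was stable for HOXC5, since the shUHRF1 change did not pass without Cl.6 (-1.21 points), and the shDNMT1 change was -4.13 points without R1 and did not pass without R2 (-0.736 points). Cl.6 Baseline read 2.50% of mitochondrial calls as methylated and Cl.6 Knockdown 0.500%, and the part of conversion in the HOXC5 change was not tested.

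Among the annotated gene starts of HOXD, HOXD10 had the largest losses under both shRNAs (chr2:176108790 on the plus strand, 120 CpGs). HOXD10 mC in clone order (Cl.3, Cl.6, Cl.9) was 95.8%, 95.9% and 95.7% before doxycycline, 79.0%, 77.4% and 64.7% with it and 84.2%, 90.7% and 78.7% at Recovery. HOXD10 mC in R1 and R2 was 93.7% and 94.8%, then 35.8% and 46.4%, then 92.5% and 95.5% over the same stages. The lowest clone at Knockdown was above the higher bulk population. The change was -22.1 ± 7.74 points (SD, n = 3) (edgeR adjusted p = 3.81e-10) and -53.1 ± 6.74 points (SD, n = 2) (adjusted p = 1.13e-12). At the canonical HOXD10 start they were -12.3 and -32.5 points, and there HOXD10 was not the largest of the cluster. HOXD13, whose mutations alter the digits, was the most methylated start of the cluster (chr2:176092721 on the plus strand). At HOXD13 the clones, in the same order, held 96.9%, 96.0% and 96.7% at Baseline, 90.2%, 88.3% and 72.2% at Knockdown and 91.5%, 93.8% and 83.6% at Recovery, while R1 and R2 held 97.2% and 95.9%, then 62.7% and 56.1%, then 94.2% and 95.2%. All 5 populations lost methylation there, -12.98 ± 10.0 points (SD, n = 3) and -37.2 ± 3.77 points (SD, n = 2), and without Cl.9 the shUHRF1 change of HOXD13 was -7.20 points.

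At HOXD1 the clones, in the same order, held 94.6%, 76.8% and 91.5% at Baseline, 78.2%, 61.7% and 72.0% at Knockdown and 90.3%, 64.0% and 81.4% at Recovery, while R1 and R2 held 64.9% and 71.8%, then 38.7% and 45.9%, then 60.9% and 70.7%. The HOXD1 start (chr2:176188668 on the plus strand) fell under both shRNAs, with changes of -17.0 ± 2.254 points (SD, n = 3) and -26.01 ± 0.229 points (SD, n = 2), with Cl.3 and Cl.9 above every other population at all stages. HOXD8 was the least methylated start of HOXD (chr2:176129694 on the plus strand), although its 218 CpGs make it the densest of the 38. HOXD8 mC in clone order (Cl.3, Cl.6, Cl.9) was 19.0%, 23.1% and 14.8% before doxycycline, 15.4%, 9.02% and 12.3% with it and 18.6%, 18.8% and 11.6% at Recovery. HOXD8 mC in R1 and R2 was 17.4% and 18.7%, then 9.13% and 7.47%, then 16.8% and 14.2% over the same stages. The changes were -6.71 ± 6.37 points (SD, n = 3) and -9.76 ± 2.05 points (SD, n = 2). The shUHRF1 fall of HOXD8 rested on Cl.6: without it the change was -3.04 points and did not pass, nor did it pass without the block or in windows of 500 bp, and here too the part of conversion in Cl.6 Baseline was not tested.

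The other 22 starts are given by Baseline class. The highly methylated HOXA2, HOXB1, HOXB2, HOXC8, HOXC11, HOXD4, HOXD9, HOXD11 and HOXD12 had Baseline means from 83.5% to 97.0%, with changes of -30.8 to -13.4 points at shUHRF1 Knockdown and -48.3 to -30.6 points at shDNMT1 Knockdown. HOXC8, which acts in spinal motor neurons, lost the most of these under shUHRF1 (-30.8 ± 9.90 points (SD, n = 3)). The intermediate HOXA4, HOXA9, HOXA10, HOXA11, HOXB8, HOXB13, HOXC10 and HOXD3 ranged from 23.8% to 74.8%, with changes of -16.9 to -2.95 and -46.6 to -8.34 points. HOXA9 in Cl.3 was at 53.2% at Baseline and 70.9% at Recovery, above its starting level. The low HOXA13, HOXB3, HOXB6, HOXC4 and HOXC9 ranged from 6.35% to 19.5%, with changes of -5.84 to -4.20 and -14.05 to -2.88 points. Over all 17 highly methylated HOX starts the median changes under shUHRF1 and shDNMT1 were -17.8 and -48.2 points, against -21.8 and -41.6 points over all highly methylated starts. Over the 12 intermediate HOX starts they were -12.7 and -18.7 points, against -13.9 and -21.5 points, and over the 9 low ones -4.60 and -3.96 points, against -3.90 and -4.21 points. Within the high and intermediate classes the median shUHRF1 loss was smaller at HOX starts than over all starts, whereas with the classes together it was larger. The highly methylated HOX starts were denser, with a median of 104 CpGs against 40 over all highly methylated starts. Highly methylated starts with at least 50 CpGs had medians of -18.7 and -38.5 points, so the shUHRF1 loss there was close to that of the HOX starts.

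The next comparison asked where the knockdowns differed. The shUHRF1 change minus the shDNMT1 change was tested as an interaction on the log odds of methylation, and 20 of 38 HOX starts kept more methylation under shUHRF1, against 14.3% of all starts, while 0 kept less, against 0.244% of all starts. The median difference was 15.8 points over the HOX starts and 4.48 points over all. Of the 20, 15 were among the 17 highly methylated starts (all but HOXB1 and HOXC8), and the others were HOXA4, HOXA11, HOXB8, HOXC9 and HOXC10. Among all starts at 80% or more the same call was made for 31.8% of 5352, and for 44.4% of the 2246 of them with at least 50 CpGs, a number that all 17 HOX starts reach. This count rested on both bulk populations and on the block for population: it was 1 without R1, 0 without R2 and 0 without the block, where 0.0519%, 0.0519% and 0% of all starts were called. The share of all starts moved as well when a clone was left out: 6 HOX starts against 6.43% of all without Cl.3, 12 against 8.03% without Cl.6, and 21 against 30.6% without Cl.9. limma called 12 against 8.99%, windows of 500 bp gave 6 against 2.87%, and 6 of 37 against 8.84% were called when every CpG had to have 5 reads in all libraries.

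As a share of Baseline mC, the 17 highly methylated HOX starts kept at Knockdown a median of 89.1% in Cl.3, 81.8% in Cl.6, 68.4% in Cl.9, 46.4% in R1 and 50.5% in R2. All starts at 80% or more kept 86.1%, 78.8%, 63.3%, 54.8% and 53.9%. With at least 50 CpGs they kept 88.2%, 81.7%, 68.1%, 58.0% and 57.2% in the same order. The HOX starts were within 1 point of other dense methylated starts in each clone and lower than them in both bulk populations, as a description with no test.

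**Figure D2:**
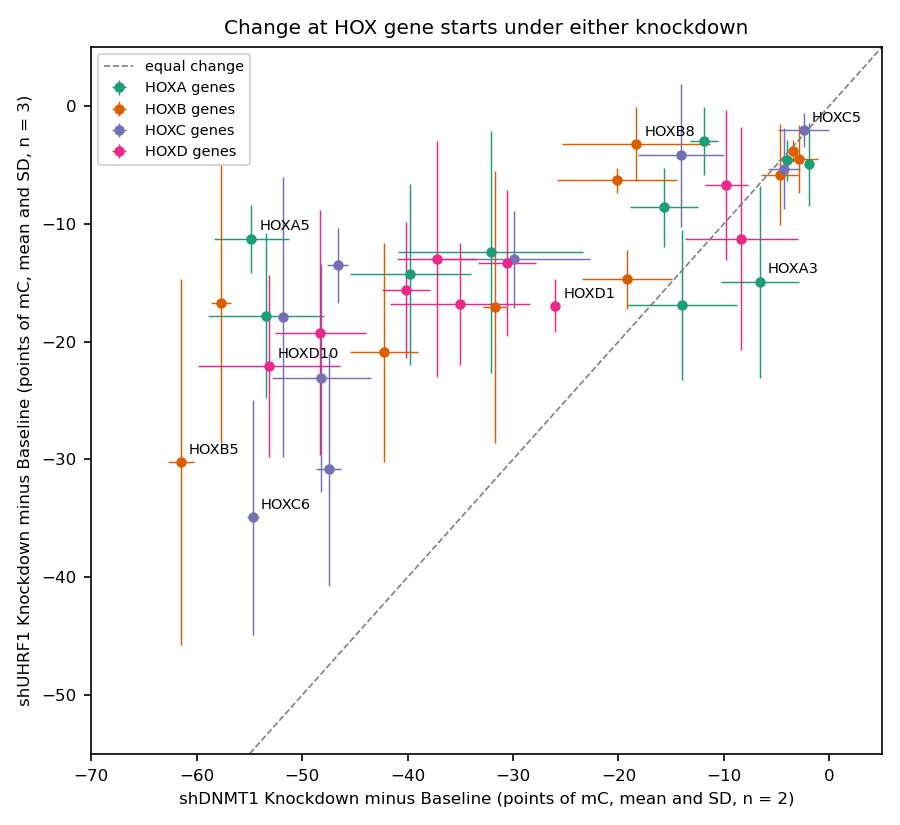
Change in mC (points) at Knockdown for each of the 38 HOX starts, shDNMT1 on the horizontal axis (mean and SD, n = 2) and shUHRF1 on the vertical axis (mean and SD, n = 3), colored by cluster with the line of equal change dashed. Starts with large shDNMT1 losses lie above the line, HOXA5 among them, while HOXA3 lies below it.

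The third comparison asked what was still missing after doxycycline had been withdrawn. At shUHRF1 Recovery 29 of 38 HOX starts were below Baseline, against 75% of all starts (median change -6.57 points against -6.20 over all), and 0 were above it, against 0.0415% of all. All 17 highly methylated starts were among the 29, and the share called among all starts at 80% or more was not counted. The median change was -8.76 points at the 17 and -12.1 points over all starts at 80% or more. The 9 that did not pass were HOXA9, HOXA11, HOXB4, HOXB8, HOXC4, HOXC5, HOXC9, HOXC13 and HOXD8. HOXC6 stayed furthest below (-23.3 ± 8.30 points (SD, n = 3), edgeR adjusted p = 1.61e-07), then HOXB5 (-21.6 ± 15.5 points (SD, n = 3), adjusted p = 1.6e-08). HOXD10 was -11.2 ± 5.91 points (SD, n = 3) from Baseline and HOXA3 -10.2 ± 3.98 points (SD, n = 3), whereas HOXA5 was -3.81 ± 0.610 points (SD, n = 3). Cl.9 was furthest from Baseline of the 3 clones at HOXC6, HOXB5 and HOXD10, and without it HOXB5 was -13.1 points from Baseline, HOXC12 -5.18, HOXB7 -3.74 and HOXD13 -3.80. HOXA6 did not pass without Cl.9 (-1.74 points), nor HOXB9 without Cl.6 (-2.14 points), the clone with the high mitochondrial reading at Baseline, whose part in the HOXB9 change was not tested. Without Cl.9 the count was 22 (56.6% of all starts), without Cl.6 it was 23 (57.8%), and without the block it was 16 (38.9%). A fall of 10 points or more was met by 10 of the 29, or 26.3% of the 38, against 31.9% of all starts.

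At shDNMT1 Recovery edgeR called 0 of 38 HOX starts and 0% of all starts in either direction. At an unadjusted p under 0.05, 5 of 38 HOX starts were lower and 0 higher, beside 2.36% lower (455) and 0.441% higher (85) among all. limma called 0 HOX starts and 1 start in all. The median change was -0.615 points over the HOX starts and -0.537 over all, with single HOX starts from -7.98 to 6.71 points. HOXC6 was -2.55 ± 0.159 points (SD, n = 2) from Baseline and HOXB5 -2.39 ± 1.08 points (SD, n = 2).

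Tested as an interaction, the change from Baseline at Recovery was lower under shUHRF1 than under shDNMT1 at 13 of 38 HOX starts, against 29.8% of all starts, and higher at 0, against 0.0104%. The 13 were HOXA3, HOXB1, HOXB2, HOXB5, HOXB7, HOXC6, HOXC8, HOXC12, HOXD3, HOXD9, HOXD10, HOXD11 and HOXD12. HOXC6 differed by -20.7 points (edgeR adjusted p = 0.00521) and HOXB5 by -19.2 points (adjusted p = 0.00227). Without Cl.9 the HOXB5 difference was -10.7 points. The share of HOX starts is near that of all starts. The count was 18 without Cl.3, 8 without Cl.6 and 6 without Cl.9, beside 50%, 17.9% and 11.4% of all starts, and it was 0, beside 0% of all, without R1, without R2 and without the block.

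**Figure D3:**
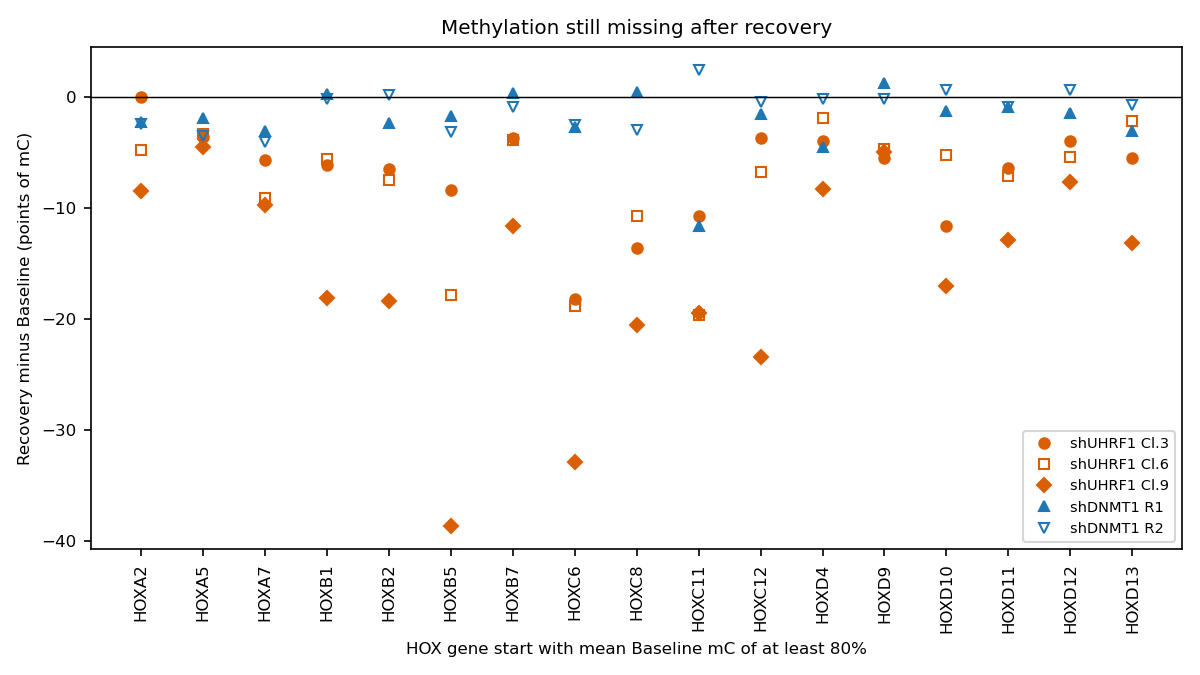
Recovery minus Baseline (points of mC) at the 17 HOX starts with a mean Baseline mC of at least 80%, 1 symbol per population. shDNMT1 symbols stay near 0 at most starts, apart from R1 at HOXC11, while Cl.9 lies lowest at HOXB5 and HOXC6.

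Across the whole clusters, taken with 10 kb on both sides, the loss in points over all reads was smallest in HOXA, which also had the lowest mC. As a mean of 1 kb bins the HOXA loss was also the smallest (-18.1 points for shUHRF1 and -36.0 points for shDNMT1). Its bins away from annotated gene starts nevertheless had the largest median shDNMT1 change of the 4 clusters (-45.9 points). HOXA (chr7:27090354-27210091) held 49.1%, 54.7% and 48.2% at Baseline in the clones, 46.1% in R1 and 45.6% in R2, and changed at Knockdown by -12.8 ± 4.30 points (SD, n = 3) and -22.9 ± 0.554 points (SD, n = 2). HOXB (chr17:48518526-48738750) held 71.4%, 73.9% and 68.0% at Baseline in the clones, 70.2% in R1 and 69.4% in R2, and changed at Knockdown by -17.2 ± 6.82 points (SD, n = 3) and -34.2 ± 0.585 points (SD, n = 2). The bulk populations lost more than the clones in both. HOXC (chr12:53928831-54066030) held 75.7%, 79.5% and 73.3% at Baseline in the clones, 75.5% in R1 and 76.2% in R2, and changed at Knockdown by -19.9 ± 8.37 points (SD, n = 3) and -39.2 ± 0.681 points (SD, n = 2). HOXD (chr2:176082721-176200907) held 80.1%, 82.4% and 76.98% at Baseline in the clones, 78.2% in R1 and 77.9% in R2, and changed at Knockdown by -17.5 ± 5.41 points (SD, n = 3) and -33.3 ± 0.119 points (SD, n = 2). At shUHRF1 Recovery the 4 clusters were -6.14, -8.83, -11.3 and -8.94 points from Baseline in the order A to D, and at shDNMT1 Recovery -0.966, -1.41, -1.91 and -0.739 points, the HOXD value being -1.10 points without R1 and -0.375 points without R2. Every one of the 5 populations lost methylation at Knockdown in all 4 clusters, and at Knockdown the bulk populations and the clones did not overlap in their losses. The same held over the whole genome, so it is no result about the clusters. There Cl.9, the clone that lost most, went from 71.7% to 42.7%, and R1, the bulk population that lost less, from 73.7% to 40.3%. The exact sign-flip permutation gave 0.25 for 3 populations and 0.5 for 2, and the exact permutation of 3 against 2 gave p = 0.2, the smallest values these designs allow, so none could pass 0.05.

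In 1 kb bins the clusters showed unmethylated valleys within methylated sequence. Bins under 20% at Baseline made up 15.5% of the 110 bins within 1 kb of an annotated HOX gene start. They made up 6.03% of the 481 other cluster bins and 0.853% of the 703 bins within 100 kb outside. The median change was -16.3, -21.6 and -22.8 points at shUHRF1 Knockdown, and under shDNMT1 it was -39.4, -43.3 and -42.8 points in the same order. Bins at HOX starts are denser in CpGs, with a median of 47 against 16 and 9 per bin. Of the 29 cluster bins under 20% away from annotated gene starts, 18 lay in HOXA, against 7, 2 and 2 in HOXB, HOXC and HOXD. The other cluster bins are not free of transcript starts. Those of the canonical transcripts of HOXA9 (1.06%) and HOXB7 (0.956%) lie among them. At annotated gene starts, bins under 20% made up 24.1%, 18.5%, 14.8% and 3.70% of the bins in the order HOXA to HOXD. The HOXA bin that fell most at shUHRF1 Knockdown, chr7:27116001-27117000 in an intron of HOXA3 and an exon of the antisense RNA HOXA-AS2, went from 96.1%, 96.3% and 95.5% to 51.8%, 57.4% and 14.5% in the clones. The HOXA bin that kept most, chr7:27143001-27144000 over coding sequence and UTR of HOXA5, still held 93.4%, 87.8% and 90.03% in the clones but 44.5% and 38.6% in the bulk populations. These bins had 22 and 96 CpGs. In HOXC the deepest fall was in introns at chr12:54001001-54002000 (11 CpGs, -51.7 ± 9.03 points, SD, n = 3). In HOXD the bin that kept most lay in coding sequence of the neighbouring homeobox gene EVX2 (-9.70 ± 4.87 points, SD, n = 3).

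**Figure D4:**
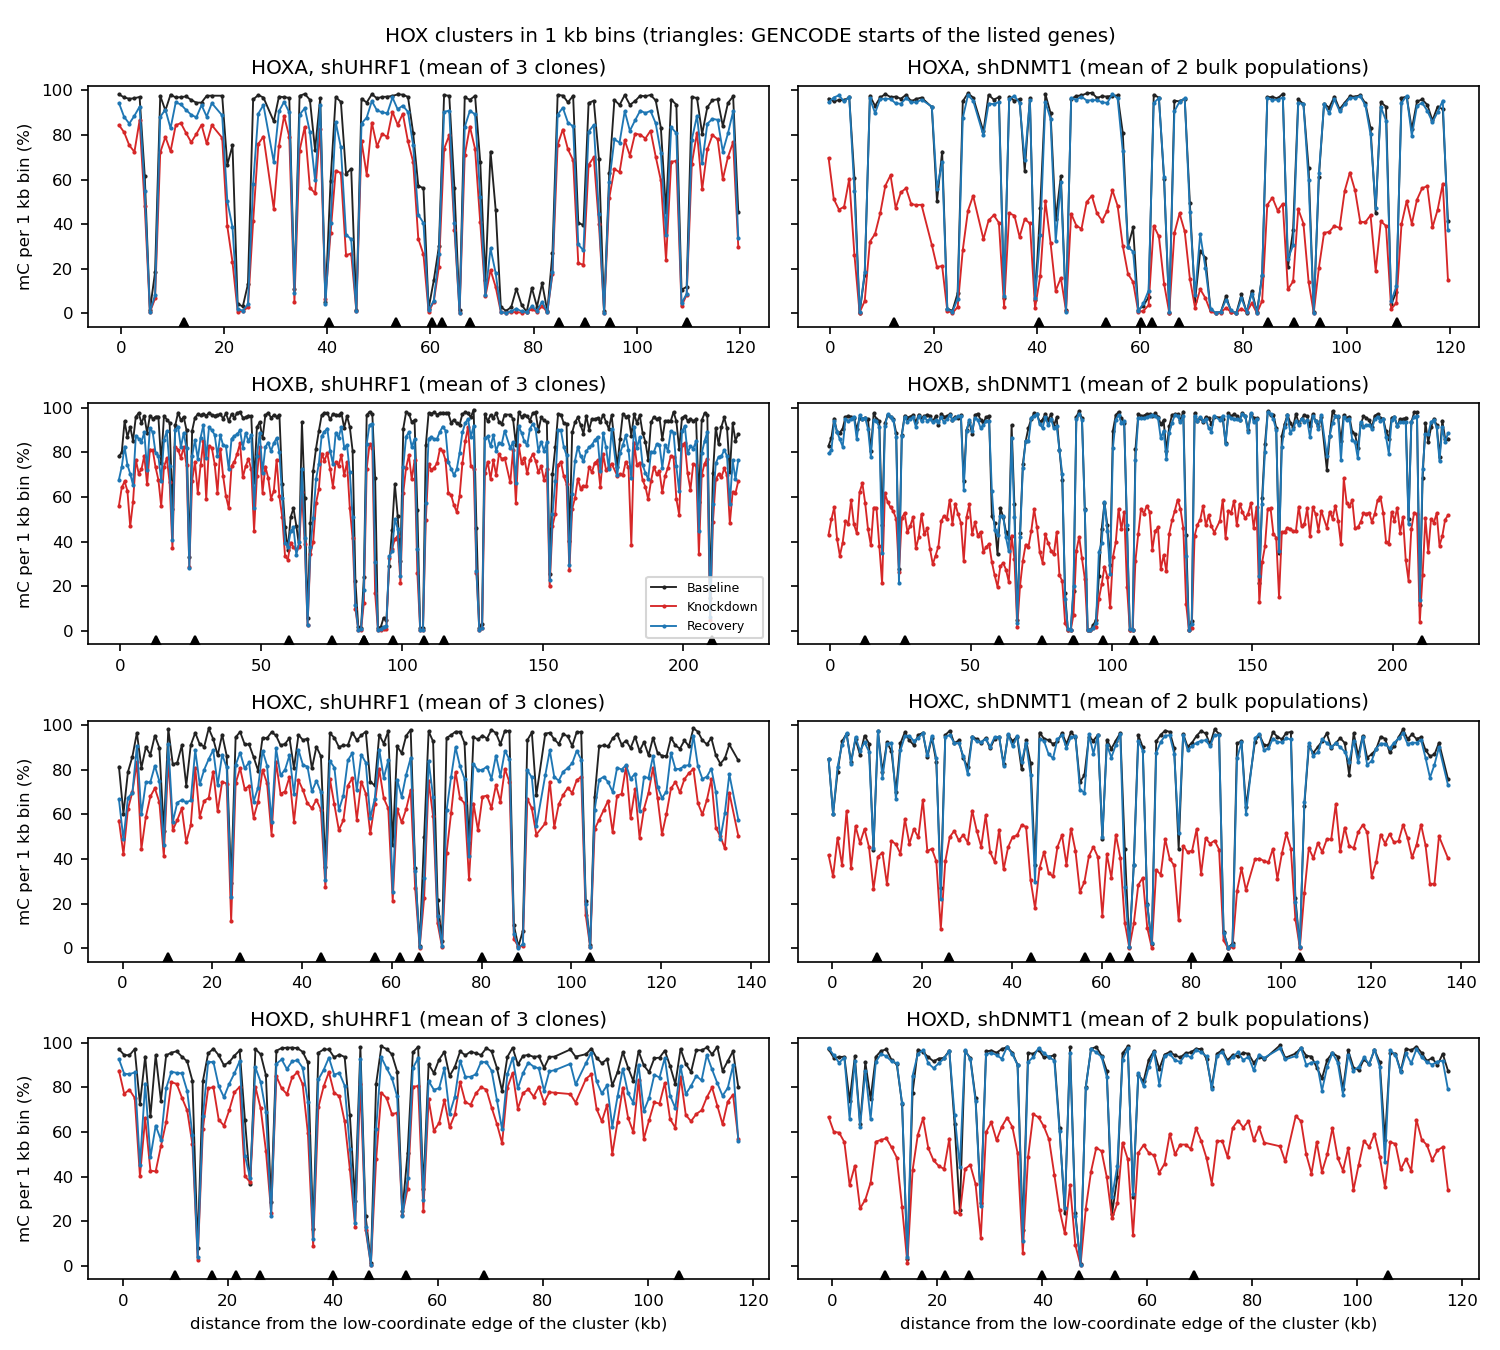
mC in 1 kb bins along the 4 HOX clusters, by distance from the low-coordinate edge of the cluster (kb), as the mean of the 3 shUHRF1 clones (left) or the 2 shDNMT1 bulk populations (right), with Baseline in black, Knockdown in red and Recovery in blue and triangles at the HOX starts. Valleys with little mC stay in place at all stages, and Recovery overlies Baseline in the bulk populations but runs below it in the clones.

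The authors also called domains in each library, and the HOX starts were looked up in these lists. All 17 highly methylated starts lay in highly methylated domains (HMDs) in all 5 Baseline libraries. At Knockdown 13 and 6 of the 17 were left in HMDs in Cl.3 and Cl.6 and 0 in Cl.9, R1 and R2. At Recovery 17, 16 and 7 were in HMDs in Cl.3, Cl.6 and Cl.9, and 17 in both R1 and R2. The 9 starts under 20% lay in unmethylated regions (UMRs) in all 15 libraries. Of the 12 intermediate starts, 9, 8, 6, 10 and 9 also lay in UMRs at Baseline in Cl.3, Cl.6, Cl.9, R1 and R2. HOXA4, HOXA11, HOXB13 and HOXC10 did so in all 15 libraries, although the HOXC10 window had a Baseline mean of 74.8%. An intermediate value of a window therefore need not describe the start itself. HMDs covered 90.3% to 91.5% of HOXC in the 5 Baseline libraries. At Recovery they covered 82.3% of it in Cl.3, 84.1% in Cl.6, 1.62% in Cl.9, 89.8% in R1 and 89.9% in R2. Cl.9 Recovery had 51.2% of HOXA, 17.2% of HOXB and 50.7% of HOXD in HMDs, so HOXC was its lowest. UMRs covered 8.69% of HOXC in R1 Baseline and 39.1% at Knockdown. Domains were called separately in each library, and HMDs require a high mean mC, so these shares move with the level itself. All gene starts were not looked up in the same way, and the paper reports a loss of HMDs across the genome under both knockdowns. The counts of HOX starts in domains are therefore no result about HOX genes.

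Within the HOX starts, low-density CpGs lost more methylation than high-density CpGs. The starts hold 4162 CpGs, of which 10.4% are of low density, against 13.2% at all starts. Among CpGs with Baseline mC of at least 85%, the change at shUHRF1 Knockdown was -33.1 ± 10.7 points for low density and -18.1 ± 6.58 points for high density (SD, n = 3). For shDNMT1 it was -57.0 ± 0.962 and -49.8 ± 1.05 points (SD, n = 2). Low-density CpGs lost more in all 5 populations, with a mean difference of -15.0 points in the clones and -7.11 in the bulk populations, with an exact sign-flip p of 0.25 and 0.5, the smallest possible. At all starts shUHRF1 gave -34.3 and -22.2 points, low density first, against -53.2 and -46.7 points in the shDNMT1 populations. At shUHRF1 Recovery the HOX CpGs were -19.0 and -9.87 points from Baseline, and at shDNMT1 Recovery -3.98 and -2.89 points. The CpGs were chosen by the same Baseline values from which the changes were measured, and such a choice by itself tends towards a fall. The size of that part was not tested.

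**Figure D5:**
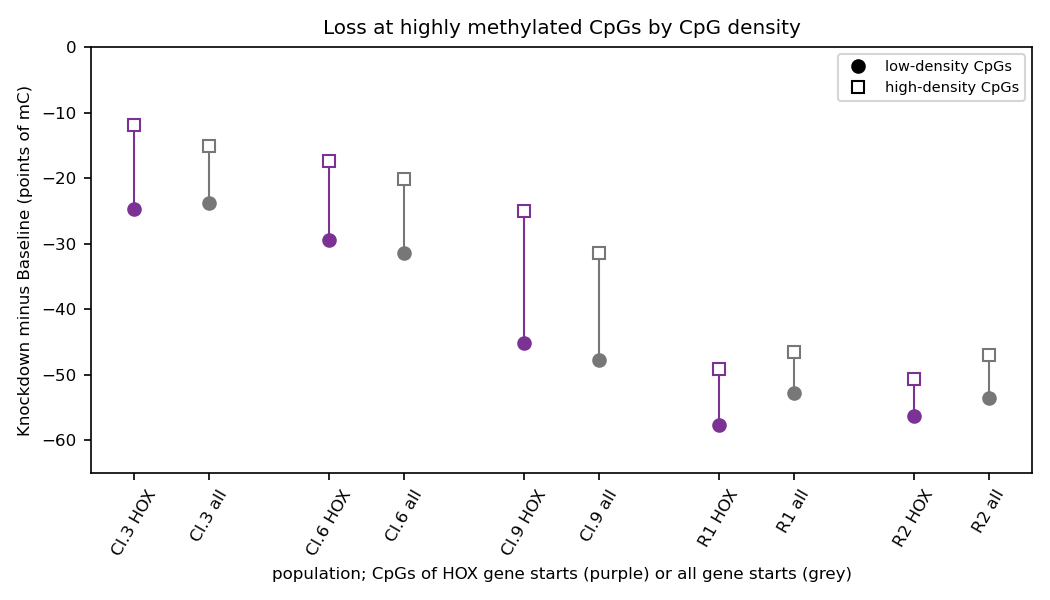
Change in mC (points) at Knockdown of CpGs with Baseline mC of at least 85%, for low-density (filled circles) and high-density (open squares) CpGs near HOX starts (purple) and all gene starts (grey), in each population. The circle lies below the square in every pair.

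Related genes were read in the same way, and their counts are to be set beside the 91.7% and 93.6% of all starts that fell at shUHRF1 and shDNMT1 Knockdown. Of 89 other homeobox genes 80 fell at shUHRF1 Knockdown and 86 at shDNMT1 Knockdown, with median changes of -15.1 and -32.1 points. Of the 89, 27 kept more methylation under shUHRF1, where 14.3% of all starts did. But 47 of the 89 were at 80% or more at Baseline. Of all such starts 31.8% kept more, and 44.4% of those with at least 50 CpGs. The ParaHox genes, relatives of the HOX genes that include the intestinal regulators CDX1 and CDX2, fell at 6 of 6 and 6 of 6 starts, CDX1 by 25.7 ± 9.90 points (SD, n = 3) for shUHRF1. The HOX cofactors, which bind DNA beside HOX proteins, fell at 7 and 9 of 9 starts. Median Baseline mC was 81.4% for the other homeobox genes, 80.5% for the ParaHox genes and 38.3% for the HOX cofactors. The genes of the Polycomb and trithorax complexes, which hold HOX genes silent or active, had a median Baseline mC of 8.23% and fell at 35 and 31 of 40 starts, with medians of -3.82 and -4.05 points.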

How the data were processed

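Genomic DNA of HCT116 populations was read by whole-genome bisulfite sequencing, 1 library per population and stage. Per the labels and the methods, the authors processed reads with Meth10X on hg38 and deposited counts per CpG (reads that kept C, and all reads) in 3 tables: Cl.3 with Cl.6, Cl.9 alone, and R1 with R2. They also deposited domain lists for each library. MethylSeekR called partially methylated, low-methylated and unmethylated domains, and highly methylated domains were what bedtools 2.25.0 left outside these, kept above a set mean mC. Here mC was taken as summed C counts over summed coverage.

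Counts were summed over CpGs within 1 kb of each protein-coding gene start (GENCODE 44). Starts needed 5 CpGs and 50 reads in every library. The methylated and unmethylated counts of all 15 libraries were fitted together in edgeR 4.0.16 (quasi-likelihood, R 4.3.3) with population as a block and shRNA by stage, and p-values were adjusted by Benjamini-Hochberg over 19261 starts. The unblocked fit, limma 3.58.1 on log2 ratios with a pseudocount of 1, other windows, minimums and starts, and leaving out each population were alternatives. On data simulated for shUHRF1 Knockdown (19261 windows, 200 changed), edgeR recovered 79% of changes of 0.7 and 100% of changes of 1.4 in log odds, with 5.79% false calls, and limma recovered 68% and 100% with 10.6% false calls.

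The labels tie the stages of a population together, which is the ground for the block. Deviations from the group mean correlated at 0.300 to 0.402 within clones and at 0.0139 to 0.0175 within bulk populations. Populations are single cultures, so p-values describe these clones or cultures alone. In the blocked edgeR fit, differences in level between populations are taken out, and p-values rest on how the stage changes vary between populations. That spread is estimated over clones and bulk cultures together, so p-values for shDNMT1 also rest on the clones.

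In each cluster, values in every library are given for the starts with the highest and lowest Baseline mC, the largest loss at either Knockdown, the largest deficit at shUHRF1 Recovery and the widest Baseline range. Bins were named by largest loss and most kept at shUHRF1 Knockdown, single CpGs by most reads, and genes of other lists by largest loss. The members and lists were chosen with earlier results of these data known. Figures used Python 3.11.15 and matplotlib 3.10.9.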

Additional observations from a re-analysis of the deposited data

Results flagged for a closer look

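In these results the change differed between shUHRF1 and shDNMT1 populations in an edgeR interaction test. At Knockdown 20 of 38 HOX starts differed, against 14.3% of all starts called in that direction. Of the 20, 15 were among the 17 HOX starts at 80% or more at Baseline. That call was made for 31.8% of all starts at 80% or more, and for 44.4% of those with at least 50 CpGs. Among the starts given in every library, the shUHRF1 change minus the shDNMT1 change, in points, was HOXA5 (43.5), HOXA7 (35.6), HOXB7 (40.9), HOXB5 (31.3), HOXC12 (33.8), HOXC6 (19.8), HOXD13 (24.2) and HOXD10 (31.1). At Recovery 13 of 38 (34.2%) differed, a share near the 29.8% of all starts and so no result about HOX genes, with HOXA3 (-13.3), HOXB7 (-6.15), HOXB5 (-19.2), HOXC12 (-10.3), HOXC6 (-20.7) and HOXD10 (-11.0). Without Cl.9 the Recovery difference was -10.7 points at HOXB5, -3.53 at HOXB7 and -4.22 at HOXC12. Of these the HOXC12 difference no longer passed, and at HOXA3 it passed neither without Cl.6 (-12.7) nor without Cl.9 (-11.7). At Knockdown the HOXB5, HOXC6, HOXD10 and HOXD13 differences did not pass without Cl.3 or without Cl.6, nor that of HOXC12 without Cl.3. Clones and bulk cultures cannot be told apart from the shRNAs in these differences, and at most 1 HOX start was called when either bulk population was left out.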

How the results depend on the processing

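HOX starts called lower at Knockdown numbered 30 to 35 of 38 for shUHRF1 and 29 to 38 for shDNMT1 when 1 population was left out (without R1 or R2 the lone shDNMT1 population is assumed to vary like the others), and 29 and 34 without the replicate block, beside 74.9% and 87.1% of all starts. Over all starts the ranges with 1 population left out were 15419 to 17778, 15514 to 18166, 10903 to 15311, 10 to 5976 and 0 to 9663 for shUHRF1 Knockdown, shDNMT1 Knockdown, shUHRF1 Recovery and the differences at Knockdown and Recovery, and for HOX starts 22 to 29, 0 to 21 and 0 to 18 for the last 3. With a change of at least 10 points also required, 9487, 11143, 6146 and 3331 starts were called at shUHRF1 Knockdown, shDNMT1 Knockdown, shUHRF1 Recovery and the difference at Recovery. The HOX starts called were 25, 28, 10 and 7. That is 65.8%, 73.7%, 26.3% and 18.4% of the HOX starts, against 49.3%, 57.9%, 31.9% and 17.3% of all. HOX starts had a higher median Baseline mC (70.6% against 25.7%), and its part in these shares was not tested. Without the replicate block, shUHRF1 Recovery gave 7495 starts and 16 HOX starts, and both differences between shRNAs gave 0. limma called 1774 starts and 12 HOX starts for the difference at Knockdown and 1 start at shDNMT1 Recovery. Windows of 500 bp gave 534 and 6 for the difference at Knockdown and 1609 and 5 at Recovery, and CpGs with at least 5 reads gave 1678 and 6 at Knockdown. Leaving out a population leaves fewer samples, and for the other settings, the block included, the cause was not tested. Low-methylated starts rest on few methylated reads, and single CpGs on few reads in all.

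Cluster changes kept their direction. As a mean of 1 kb bins, HOXA changed by -18.1 points at shUHRF1 Knockdown, the 4 clusters by -36.0, -40.8, -43.1 and -37.8 at shDNMT1 Knockdown, and HOXA and HOXB by -1.26 and -1.37 at shDNMT1 Recovery. With no flank, HOXA, HOXB and HOXD changed by -21.8, -33.5 and -32.3 at shDNMT1 Knockdown, and HOXA and HOXB by -1.02 and -1.48 at Recovery. Over CpGs with at least 5 reads, HOXA, HOXC and HOXD changed by -22.1, -38.3 and -34.4 at shDNMT1 Knockdown and HOXA by -0.833 at Recovery. With low density set at 36 bp the shDNMT1 density difference was -4.99 points at the HOX starts.

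These changes of single HOX starts, in points, turned in sign. For the difference at Recovery, HOXA5 3.69 in 500 bp windows, HOXB4 -6.90 to 0.814 with 1 population left out, HOXC5 -0.585 in 500 bp windows, -0.746 to 1.08 with 1 population left out and HOXD8 -2.01 to 1.88 with 1 population left out. For the difference at Knockdown, HOXA6 14.5 at the canonical start, HOXB7 -1.10 at the canonical start, HOXC5 -1.05 in 500 bp windows, -1.31 to 2.09 with 1 population left out and HOXC13 -6.72 in 500 bp windows. For shDNMT1 Recovery, HOXA7 0.579 at the canonical start, HOXB7 0.216 in 500 bp windows, 0.118 at the canonical start, -0.814 to 0.392 with 1 population left out, HOXB9 0.290 in 500 bp windows, -1.09 to 0.171 with 1 population left out, HOXB4 -0.257 over CpGs with at least 5 reads, HOXC12 0.0636 in 500 bp windows, HOXC5 -1.39 to 0.442 with 1 population left out, HOXC13 0.477 in 500 bp windows, -4.97 to 4.31 with 1 population left out and HOXD10 0.276 in 500 bp windows, -1.24 to 0.706 with 1 population left out. For shDNMT1 Knockdown, HOXB9 0.167 in 500 bp windows. For shUHRF1 Recovery, HOXB4 3.33 in 500 bp windows, -5.09 to 2.63 with 1 population left out and HOXC5 -0.599 to 0.274 with 1 population left out. None of these was called with the turned sign.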
